A study of Cricetulus griseus with 8 samples.

Results

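The transcription factors ATF4 and CHOP and the genes they act with in stressed cells were followed in LR73 phagocytes that met apoptotic cells. The set was fixed by gene symbol as Atf4, Ddit3 (which encodes CHOP), Atf3, Atf5, Cebpb, Cebpg, Trib3, Nupr1, Chac1 and Sesn2. Of these 10 listed genes, 9 were found by symbol among the 26776 named genes of the table, and Cebpb is not analysed here. LR73 is a Chinese hamster (Cricetulus griseus) cell line, labelled as fibroblast, grown in alpha-MEM with serum. In the first group 4 libraries came from LR73 cells alone. In the second group 4 libraries came from LR73 cells co-cultured with apoptotic Jurkat cells, a human T cell line. The Jurkat cells were exposed to UV-C at 1500 mJ and then kept for 4 h before the co-culture. No genotype, age or further treatment is given in the labels for either group, all libraries come from 1 cell line, and the length of the co-culture is not given in the sources used here. Each group is described as biological replicates. How the cultures were separated is not stated, so the p-values measure the spread between these libraries, which may be partly technical. Since RNA was taken from the bulk culture, fewer cells with a transcript and less of it per cell cannot be told apart.

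ATF4 is the main transcription factor of the integrated stress response. Kinases that sense unfolded protein in the endoplasmic reticulum, missing amino acids, viral RNA or haem shortage phosphorylate the initiation factor eIF2, which lowers most protein synthesis while the Atf4 mRNA is translated more. ATF4 then binds DNA with other basic leucine zipper (bZIP) proteins and raises genes for amino acid supply, tRNA charging and redox balance. Under lasting stress it also raises CHOP, and with it TRIB3, a pseudokinase that in turn limits ATF4 and CHOP. The protein ATF4 is controlled largely by translation, which these mRNA measurements do not see.

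Depth was 22.7 to 29.7 M reads (M, mega) per library over named genes, and the values below are normalized counts, that is, read counts divided by 1 size factor per library. Alone library 1 stood apart, with a median absolute deviation of 0.168 from the rest of its group on the log2 scale over the tested genes, where the other 7 libraries lay between 0.0466 and 0.09998. Values without it are also given for some of the results that rest on it. Of 14 fibroblast markers in the table, 10 had a mean of at least 10 normalized counts, vimentin and fibronectin among them, but the collagen gene Col1a1 had 2 reads in each group, Col1a2 had 6 and 4, and Thy1 had 0. Of 24 T cell markers in the table, Cd3d, Cd3g, Cd2 and Lcp2 were among those with 0 reads in every library, while Lck had 0 reads alone and 9 in co-culture and Cd3e 0 and 2. The summed level of the T cell list ran from 1505 to 1620 normalized counts alone and from 1374 to 1436 in co-culture, and Tcf7, Themis and Lat made up 95.6% of its reads. Of the 24, 11 had more reads in co-culture and 7 fewer, with 12 at 0 reads alone and 5 in co-culture. The summed level of the fibroblast list was 184503 to 188261 normalized counts alone and 211734 to 213706 in co-culture. Of its 14 genes, 3 had more reads in co-culture and 9 fewer, without scaling for depth. Mean normalized counts alone and in co-culture were 111964 and 130760 for Vim, which encodes vimentin, but 953 and 767 for Dcn. The part of human RNA in the results below was not tested.

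With apoptotic cells, 7 of the 9 stress genes fell and none rose. Trib3, Nupr1, Atf3, Atf4, Ddit3, Sesn2 and Atf5 were lower by limma at an adjusted p under 0.05, where 5.31% of the 13494 genes tested were called lower and 6.36% higher. Cebpg and Chac1 had lower means that did not pass. The median log2 fold change of the 9 genes was -0.40, against 0.001 over all genes tested, and all 9 log2 fold changes were negative, against 49.6% of all genes tested. In 7 of the 9 genes every co-culture library lay below every library alone, which was so for 9.72% of all genes tested. The members were chosen with earlier results of these data known, so these contrasts with all genes may partly reflect that choice. No member was higher at an unadjusted p under 0.05 by limma, where the share of all genes was not counted. On recovered reads 7 members were lower and 0 higher by edgeR, which called 5.37% of genes lower and 6.2% higher, and likewise 7 and 0 by DESeq2, which called 5.34% and 6.58%. Without alone library 1, limma called 7 members lower, and 12.5% of all genes lower and 13.4% higher.

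**Figure D1:**
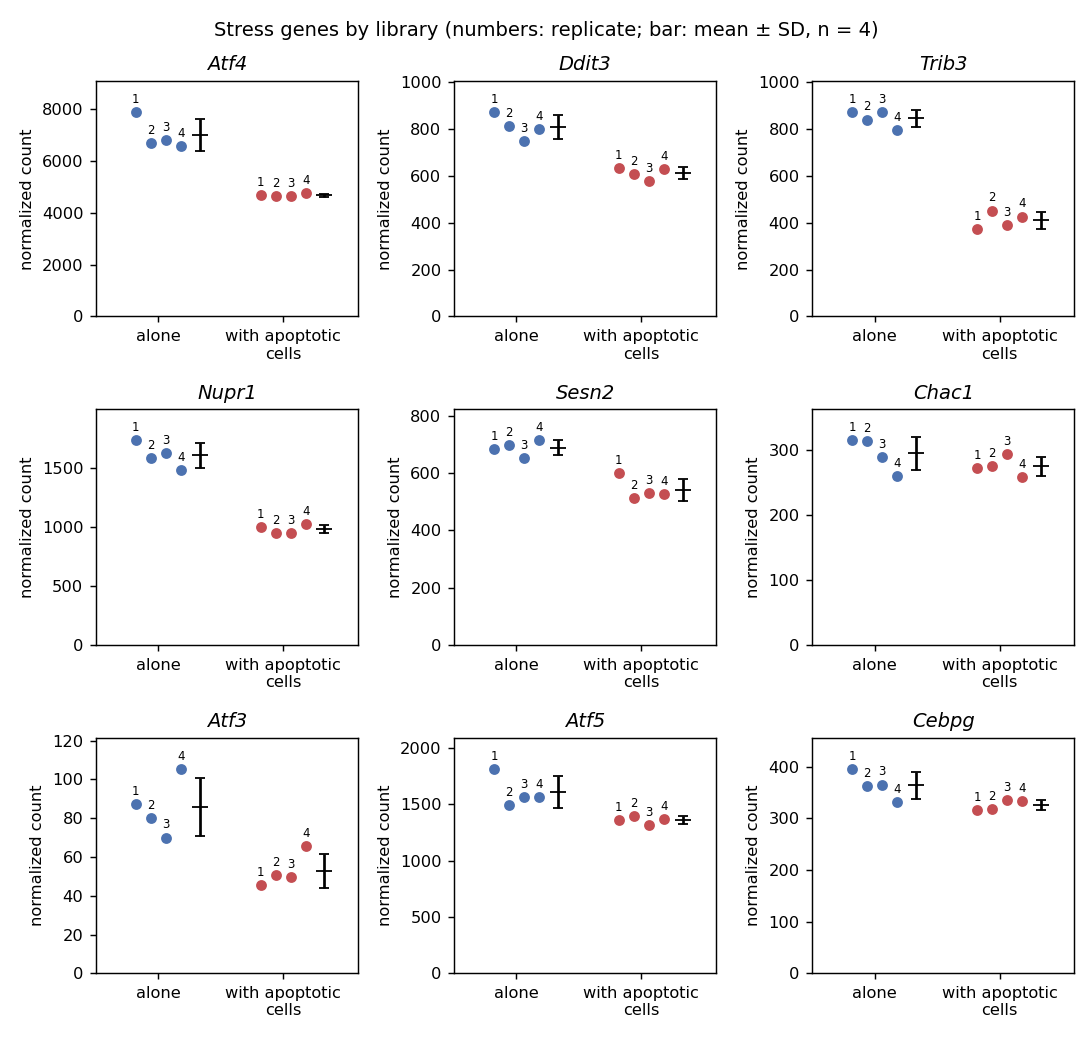
Normalized counts of the 9 stress genes in each library (vertical axes, starting at 0), for LR73 cells alone (blue, 4 libraries) and with apoptotic cells (red, 4 libraries), with replicate numbers above the points and the mean ± SD beside them. The groups are apart in 7 genes and overlap in Chac1 and Cebpg, and alone library 1 is the highest of its group for Atf4, at 7879.

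Atf4, the factor at the head of the response, had 7879, 6679, 6788 and 6542 normalized counts in libraries 1 to 4 of cells alone (the order used throughout), and 4686, 4629, 4618 and 4742 in those of the co-cultures. The co-culture libraries were close together and all below the lowest library alone, while alone library 1 was well above the other 3. The mean fell from 6972 ± 613 to 4669 ± 57.0 (mean ± SD, n = 4 each), a log2 fold change of -0.57 with an SE of 0.05 (adjusted p = 0.000135 by limma). Alone library 1 was 18.1% above the mean of the other alone libraries. The mean of Atf4 fell by 33.04% with this library and fell by 30.004% without it, and the log2 fold change over the left-out libraries and other settings ran from -0.60 to -0.51.

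Ddit3, which encodes CHOP, the bZIP factor that links lasting stress to cell death, had 875, 813, 750 and 803 normalized counts alone and 633, 608, 580 and 630 in co-culture. Its groups did not overlap, and library 3 was the lowest of each. The mean went from 810 ± 51.1 to 613 ± 24.4 (mean ± SD, n = 4 each), a log2 fold change of -0.40 with an SE of 0.06 (adjusted p = 0.00157 by limma). All 17 alternative settings kept this call, with adjusted p = 3.78e-07 to 0.00892.

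Atf3, an early stress factor of the same bZIP class that can repress or activate its targets, had the fewest reads of the 9, at 45 to 102 per library. It stood at 87.4, 80.0, 70.0 and 105 normalized counts alone and at 45.4, 50.9, 49.5 and 65.6 in co-culture. The groups did not overlap, but the highest co-culture library and the lowest library alone were only a few counts apart. Its log2 fold change was -0.69 with a wide error (SE 0.15, 95% interval -1.02 to -0.35, adjusted p = 0.0167 by limma). It did not pass once co-culture library 1, 2 or 3 was left out (adjusted p = 0.0509 to 0.0574), with log2 fold changes of -0.62, -0.67 and -0.66. DESeq2 gave an adjusted p of 0.0045 and the range over all alternatives was 0.0022 to 0.0574.

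Atf5, a relative of ATF4 whose mRNA is likewise translated under eIF2 phosphorylation, had 1816, 1494, 1561 and 1563 normalized counts alone and 1362, 1400, 1317 and 1369 in co-culture. Here too alone library 1 was the highest, 17.95% above the mean of the others. The log2 fold change was -0.24 (SE 0.06, adjusted p = 0.0248 by limma). The mean fell by 15.32%, and fell by 11.52% without alone library 1. It did not pass once library 3 of cells alone or any of the co-cultures was left out (adjusted p = 0.0559 to 0.0817), with a range of 0.000519 to 0.0817 over all alternatives.

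Cebpg, a bZIP protein without an activation domain of its own that pairs with ATF4, had 396, 362, 365 and 332 normalized counts alone and 316, 317, 335 and 334 in co-culture. The groups overlapped, with 2 co-culture libraries below the lowest library alone. Its log2 fold change was -0.16 (SE 0.06, 95% interval -0.30 to -0.02), and the limma adjusted p of 0.143 did not pass the threshold over all genes. None of the 17 alternatives called it (adjusted p = 0.0808 to 0.288).

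Among the effectors, the change was largest in Trib3, the pseudokinase that binds AKT and the stress factors themselves. It had 869, 839, 872 and 795 normalized counts alone and 372, 451, 388 and 426 in co-culture. The groups were far apart, and the co-culture libraries spread more (8.74% of their mean) than those alone (4.21%). The mean fell by 51.5%, a log2 fold change of -1.04 with an SE of 0.07 (adjusted p = 1.12e-05 by limma), and 13 of the 13494 tested genes had a more negative fold change. Alone library 1 was only 4.02% above the others of its group here, and the log2 fold change over all alternatives ran from -1.093 to -1.001.

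Nupr1, a small nuclear protein induced by many stresses, had 1739, 1585, 1629 and 1485 normalized counts alone and 1005, 954, 953 and 1026 in co-culture. Every co-culture library was well below every library alone. The mean went from 1609 ± 105 to 985 ± 37.0 (mean ± SD, n = 4 each), a log2 fold change of -0.71 with an SE of 0.05 (adjusted p = 3.21e-05 by limma), and -0.74 to -0.67 over all alternatives.

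Sesn2, a leucine-binding inhibitor of the growth kinase mTORC1, had 686, 698, 654 and 715 normalized counts alone and 598, 514, 529 and 526 in co-culture. The groups did not overlap, and co-culture library 1 was the highest of its group, whereas the same library was the lowest for Trib3. The log2 fold change was -0.35 (SE 0.06, adjusted p = 0.00427 by limma), and all 17 alternatives called it, with adjusted p = 4.16e-05 to 0.0201. Alone library 1 was 0.450% below the mean of the other alone libraries.

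Chac1, an enzyme that breaks down glutathione, had 315, 314, 289 and 261 normalized counts alone and 273, 275, 293 and 258 in co-culture. The groups overlapped, with only 1 co-culture library below the lowest library alone. Its log2 fold change was -0.10 (SE 0.08, adjusted p = 0.436 by limma), with a 95% interval of -0.26 to 0.07, so a fall of the size of Ddit3 lay outside the interval. With 1 library left out it ran from -0.16 (without alone library 4) to -0.06 (without alone library 1). None of the 17 alternatives called it (adjusted p = 0.202 to 0.644).

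**Figure D2:**
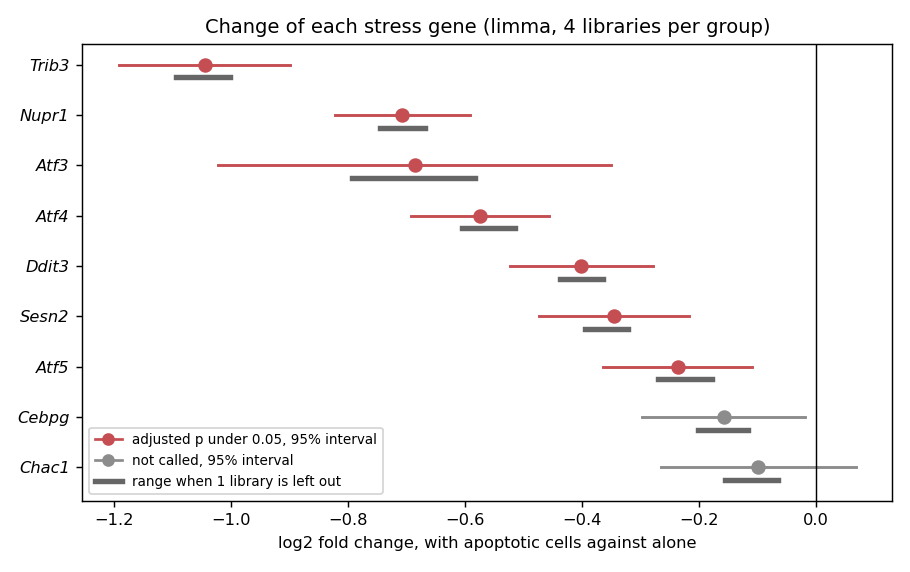
Log2 fold change of each stress gene (horizontal axis, co-culture against alone, limma) with its 95% interval, red where the adjusted p is under 0.05 and grey where it is not, and a dark bar for the range when 1 library is left out. Trib3 lies at -1.04 and Chac1 at -0.10, whose interval crosses 0.

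The falls were not of equal size. To compare each gene with Atf4, the log2 value of Atf4 was subtracted from that of every gene in each library and the differences were tested by limma, so that all of these values share the error of Atf4. Trib3 fell more than Atf4 by 0.47 on the log2 scale (SE 0.08, adjusted p = 0.000262) and Nupr1 more by 0.13 (SE 0.05, adjusted p = 0.0269), while 0.156% of all other genes tested were called lower than Atf4 in this way. All 15 alternatives kept the Trib3 difference, -0.54 to -0.42. That of Nupr1 did not pass once library 2 or 3 of either group was left out (adjusted p = 0.0695 to 0.0826), and it was -0.15 without alone library 1 (adjusted p = 0.00101). Atf3 could not be told from Atf4, with a difference of -0.11 and a 95% interval of -0.47 to 0.25 (adjusted p = 0.515).

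The other 5 genes changed less than Atf4. The differences were 0.17 for Ddit3, 0.23 for Sesn2, 0.34 for Atf5, 0.42 for Cebpg and 0.48 for Chac1, each at an adjusted p under 0.05 by limma. Since 90.9% of all other genes tested were also higher than Atf4 in this way, this count says little of the members as such. With so many genes called, adjustment changed the limma p-values little, from 0.0238 to 0.0269 for Nupr1 and from 0.0136 to 0.0158 for Ddit3. The Ddit3 difference did not pass once library 3 of cells alone was left out (adjusted p = 0.0517), nor did that of Sesn2 once this library or library 1 of the co-cultures was left out (adjusted p = 0.0545 and 0.0703). With alone library 3 left out, 4 members in all differed from Atf4, against 7 with all libraries. The share of all genes was not counted with that library left out.

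**Figure D3:**
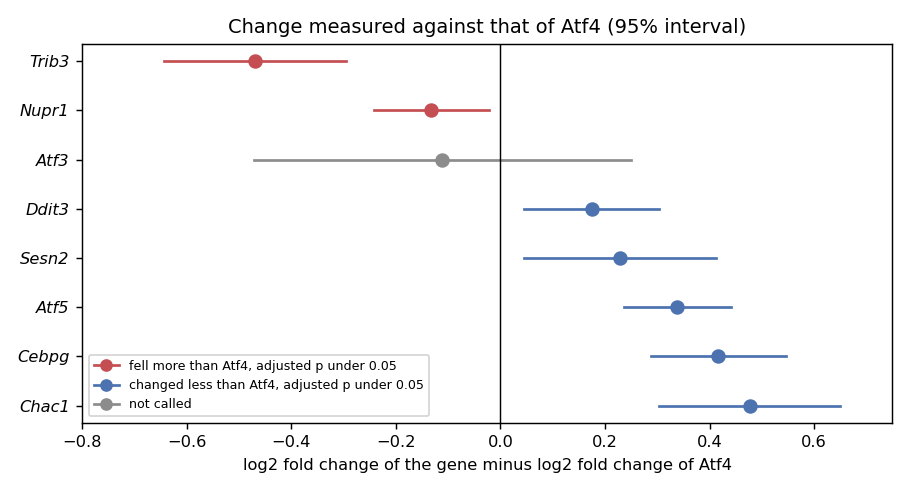
Log2 fold change of each gene minus that of Atf4 (horizontal axis) with its 95% interval, red where the gene fell more than Atf4, blue where it changed less and grey where the difference was not called. Trib3 at -0.47 is on the far left and Chac1 at 0.48 on the far right.

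The genes most like Atf4 over the 8 libraries, by Pearson's r of log2 values and outside the set, were Mvd (r = 0.995), an enzyme of the mevalonate pathway, Sh3gl2 (r = 0.992), an endophilin of membrane curvature, and Map1lc3b (r = 0.990), the autophagosome protein LC3B. Among those most like Trib3 were Mfsd11, listed as mfsd11 (r = 0.995), and Fdps, farnesyl diphosphate synthase (r = 0.992). These are descriptions over 8 libraries that share the same contrast between the groups, and they were picked as the highest of 13494 genes. Among the members, Nupr1 (r = 0.990) and Ddit3 (r = 0.973) were nearest to Atf4, and Chac1 (r = 0.558) was the farthest.

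Other genes that ATF4 is known to raise were taken from a list of amino acid, tRNA charging and stress genes, of which 42 were in the table and 36 were tested. Of these, 10 fell, none rose and 26 did not pass, by limma over all genes, where 5.31% of all genes tested fell and 6.36% rose. The median log2 fold change of the list was -0.09. At an unadjusted p under 0.05 by limma there were 15 lower and 3 higher. The share of all genes at that threshold was not counted. On recovered reads edgeR called 10 lower and 0 higher, beside 5.37% and 6.2% of genes. DESeq2 called 11 and 0, beside 5.34% and 6.58%. Without alone library 1, 15 were lower and 1 higher, beside 12.5% and 13.4% of all genes. The largest fall was that of Sqstm1, the autophagy receptor p62, with 2397, 2355, 2305 and 2322 normalized counts alone and 1378, 1387, 1429 and 1490 in co-culture (log2 fold change -0.72, SE 0.04, adjusted p = 3.06e-06 by limma).

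Among the enzymes of amino acid and one-carbon metabolism, 4 of 9 tested fell, beside 5.31% of all genes tested. Asns, asparagine synthetase, a classical readout of ATF4, had 1942, 1712, 1778 and 1821 normalized counts alone and 1555, 1452, 1545 and 1568 in co-culture. The groups did not overlap, and the log2 fold change was -0.24 (SE 0.05, adjusted p = 0.00805 by limma). The other 3, named after their values were seen, were the serine synthesis enzymes Psph (-0.24) and Psat1 (-0.14) and the mitochondrial folate enzyme Mthfd2 (-0.20). Psat1 did not pass once library 2, 3 or 4 of the co-cultures was left out (adjusted p = 0.0551 to 0.0593), nor Psph once library 3 of cells alone or library 1 or 2 of the co-cultures was (adjusted p = 0.0509 to 0.0566).

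Of 12 aminoacyl tRNA synthetases, which load tRNAs with amino acids, 3 fell and 9 did not pass, beside 5.31% of all genes lower. Negative log2 fold changes were found in 10 of the 12, against 49.6% of all genes tested. Aars, for alanine, had 9641, 9644, 9702 and 9442 normalized counts alone and 7601, 7651, 7697 and 7714 in co-culture (log2 fold change -0.33, SE 0.03, adjusted p = 6.04e-05 by limma). Cars, for cysteine (-0.37), and Yars, for tyrosine (-0.24), also fell and were named after seeing their values. Of 8 amino acid transporters 1 fell, beside 5.31% of all genes tested. This was Slc1a4, a carrier of small neutral amino acids (-0.54, SE 0.10, adjusted p = 0.00594 by limma), named after its values were seen. Its alone libraries ran from 640, in library 1, to 932 normalized counts. The log2 fold change of Slc1a4 was -0.64 without alone library 1. Jdp2, a bZIP repressor that dimerizes with ATF3 and JUN, was the remaining gene of the 10, with a log2 fold change of -0.42 with an SE of 0.06 (adjusted p = 0.00118 by limma).

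**Figure D4:**
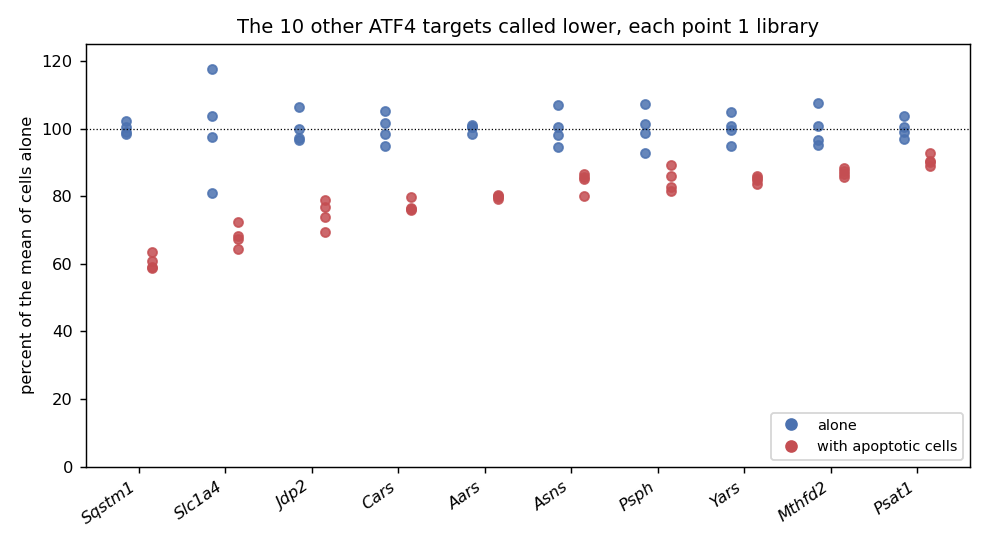
The 10 other ATF4 targets called lower, each point 1 library as a percentage of the mean of cells alone (vertical axis, starting at 0), blue for alone and red for co-culture. The falls run from Sqstm1, with the largest (-0.72 on the log2 scale), to Psat1, with the smallest (-0.14). The groups are apart in all 10, which follows largely from their choice as called lower in these same libraries. Of all genes tested, 9.72% were apart in this direction.

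Upstream of Atf4 stands the machinery that sets eIF2 phosphorylation. Tested were 18 genes for eIF2 kinases, eIF2 and eIF2B subunits and phosphatase subunits, with the related Dnajc3, Gcn1l1, Oma1 and Nck1 among them. The kinase gene Eif2ak2, with means of 0.208 normalized counts alone and 0 in co-culture, was not tested. Of the 18, 1 fell, 2 rose and 15 did not pass, with a median log2 fold change of 0.05. Over all genes tested 5.31% fell and 6.36% rose, so with all libraries kept these counts do not set the list apart. Without alone library 1, 8 of its genes were higher, beside 13.4% of all genes. Eif2ak3, the kinase PERK of the endoplasmic reticulum, stood at 1019 ± 74.0 and 960 ± 18.6 (normalized counts as mean ± SD, n = 4 each; log2 fold change -0.08, 95% interval -0.20 to 0.04, adjusted p = 0.356 by limma). It was called lower without alone library 1 (adjusted p = 0.0213). Eif2ak4, the amino acid sensing kinase GCN2, stood at 1531 ± 158 and 1634 ± 32.0 (log2 fold change 0.10, 95% interval -0.05 to 0.25, adjusted p = 0.377 by limma), and its log2 fold change was 0.02 without alone library 1.

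Ppp1r15a, or GADD34, a stress-induced subunit that brings a phosphatase to eIF2 and is itself raised by ATF4 and CHOP, was the member of that list that fell. It had 1414, 1154, 1176 and 1171 normalized counts alone and 991, 1048, 1053 and 1052 in co-culture. Its log2 fold change was -0.24 (SE 0.06, adjusted p = 0.0357 by limma), and -0.17 without alone library 1. It did not pass once library 3 or 4 of cells alone or any of the co-cultures was left out (adjusted p = 0.0529 to 0.112). The rises were those of the eIF2B subunits Eif2b5 (0.18, SE 0.03, adjusted p = 0.00591 by limma) and Eif2b4 (0.20, SE 0.05, adjusted p = 0.0219 by limma). Eif2b4 did not pass once any library other than alone library 1 was left out (adjusted p = 0.0505 to 0.0727). Without alone library 1 the list had 2 genes lower and 8 higher, beside 12.5% and 13.4% of all genes.

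Among 12 tested genes tied to CHOP or closest in family to the members, 2 fell and 2 rose, beside 5.31% and 6.36% of all genes tested. The median log2 fold change was -0.04, and over the left-out libraries it ran from -0.13 (without alone library 1) to 0.01 (without alone library 4), being above 0 also without alone library 2. Ppp1r15a and Dnajb9, a chaperone partner of BiP (-0.28, SE 0.05, adjusted p = 0.00866 by limma), fell. Trib2, a paralog of Trib3, rose from 97.4 ± 4.96 to 140 ± 19.9 (normalized counts as mean ± SD, n = 4 each; log2 fold change 0.51, SE 0.11, adjusted p = 0.0134 by limma), and its groups did not overlap. Ero1l, the oxidase of the endoplasmic reticulum that CHOP can raise, rose by 0.28 (SE 0.06, adjusted p = 0.0172 by limma). The rise was 0.21 without alone library 1. It did not pass once library 2 or 3 of the co-cultures was left out (adjusted p = 0.0524 and 0.0616). Of the death genes Bbc3 had mean levels of 165 and 130 normalized counts (log2 fold change -0.34, adjusted p = 0.0626 by limma), and Bcl2l11 at 1695 and 1663 (-0.02, adjusted p = 0.835 by limma), both named after their values were seen. Without alone library 1, 5 genes of this list were lower and 2 higher, beside 12.5% and 13.4% of all genes. With library 3 or 4 of cells alone or any of the co-cultures left out, 1 was lower, beside 2.64 to 3.62% of all genes. With library 2 or 3 of the co-cultures left out, 1 was higher, beside 3.57% and 3.3% of all genes.

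The other arms of the unfolded protein response, run by IRE1 and ATF6, were set beside these genes. Of 29 tested, 2 fell, 1 rose and 26 did not pass, with a median log2 fold change of -0.03. Beside 5.31% and 6.36% of all genes tested, these counts do not set the list apart. Hspa5, the chaperone BiP and a common readout of that response, stood at 33389 ± 1221 and 32082 ± 135 (normalized counts as mean ± SD, n = 4 each). Its log2 fold change was -0.06 (95% interval -0.13 to 0.01, adjusted p = 0.283 by limma), and -0.03 without alone library 1. Every co-culture library lay below every library alone, the highest at 32252 against the lowest at 32379. This was so for 9.72% of all genes tested. Xbp1, the factor spliced by IRE1, stood at 1496 ± 67.4 and 1464 ± 20.0 (log2 fold change -0.03, 95% interval -0.12 to 0.06, adjusted p = 0.663 by limma), and its splicing is not seen in gene counts. It stood at -0.06 without alone library 1 and at -0.003 without alone library 3. Herpud1, a degradation factor of the endoplasmic reticulum that ATF4 can also raise, fell (-0.39, SE 0.04, adjusted p = 0.000169 by limma), as did Dnajb9. Ern1, which encodes IRE1, rose from 1200 ± 130 to 1611 ± 47.9 (log2 fold change 0.43, SE 0.07, adjusted p = 0.00397 by limma). Its log2 fold change was 0.35 without alone library 1. Without alone library 1, 3 genes were lower and 2 higher, beside 12.5% and 13.4% of all genes.

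**Figure D5:**
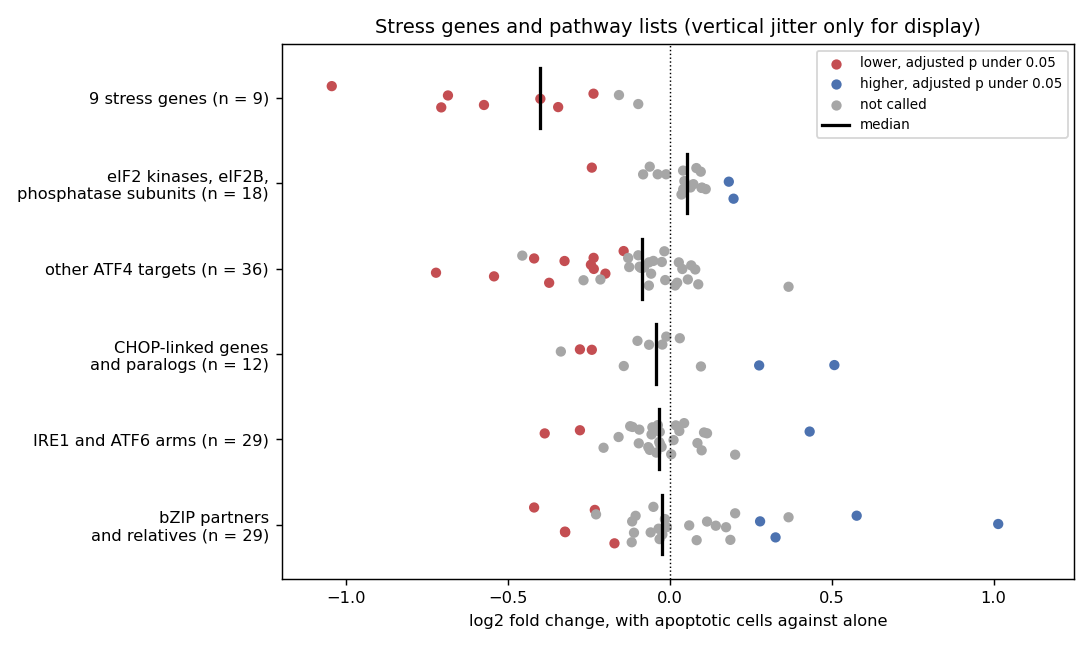
Log2 fold change of every tested gene (horizontal axis) in the set of 9 and in 5 related lists, red for genes called lower, blue for genes called higher, grey for the rest, with a black line at the median of each list. The median is -0.40 for the 9 stress genes, -0.09 for the other ATF4 targets and between -0.04 and 0.05 for the other lists, of which the CHOP-linked one stands at -0.13 and the bZIP one at 0.01 without alone library 1.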

How the data were processed

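The authors deposited 1 table with a signal value for each gene in each library. These are read counts scaled by a single factor for the library, as their steps show. FastQC, STAR, featureCounts and DESeq2 are named in the submitters' processing notes. For the build, the annotation, the strand setting and the treatment of reads that match both species, nothing is given in the sources used here. Reads from human RNA could therefore be counted under a hamster gene, and reads of near-identical or overlapping genes cannot be assigned with certainty. All deposited signal values (100%) came out as whole reads within 0.01 reads, so the reads were recovered. A row with no gene name held 0.140 to 0.176% of reads and was left out. The replicate number and the letters AC tied columns to labels; another prefix in their names is not explained.

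The test was limma-trend (limma 3.58.1, R 4.3.3) on log2(normalized count + 1), group as the only term, for the 13494 genes whose mean reached 10, with Benjamini-Hochberg adjustment over all of them and a threshold of 0.05. Fold changes on this scale understate those of low genes. edgeR 4.0.16 (quasi-likelihood, TMM) called 726 genes lower and 838 higher on the recovered reads, and DESeq2 1.42.0 called 713 and 879, against 716 and 858 by limma. The same fit was run on differences from Atf4. Other alternatives changed the pseudocount, the filter, the scaling, the weights, the block or the libraries kept. The code was tested on simulated data, and figures were drawn with matplotlib 3.10.9.

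The members and lists were chosen with earlier results of these data known. Lists were only counted, and they share genes: Ppp1r15a, Dnajb9, Jdp2, Dnajc3, Atf6, Atf6b, Cebpd and Tnfrsf10b each stand in 2. Named genes were all members, the 2 called list genes with the smallest adjusted p in each direction, Eif2ak3, Eif2ak4, Ppp1r15a, Asns, Hspa5 and Xbp1, and the 3 genes most correlated with Atf4 and with Trib3, of which 1 is not reported here; others are marked as named after their values were seen. No sequences or positions are given, since no genome was used here.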

Additional observations from a re-analysis of the deposited data

How the results depend on the processing

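The falls of Trib3, Nupr1, Ddit3, Sesn2 and Atf4 passed the threshold under all 17 alternatives, and no member changed sign under any. The number of members called lower was 5 to 7 with 1 library left out and 6 or 7 otherwise, and none was called higher. The number that differed from Atf4 was 4 to 7 with 1 library left out. Of all other genes, 90.9% were higher and 0.156% lower than Atf4 with all libraries, and 90.1% and 0.23% without alone library 1. That share was not counted with other libraries left out, so these counts say little of the members as such. No difference from Atf4 was computed with edgeR or DESeq2, and Atf3 could not be tested at a mean of at least 100. With 1 library left out, 2.64 to 12.5% of all genes were lower and 3.08 to 13.4% higher, the most without alone library 1. Over these settings the eIF2 list had 0 to 2 genes lower and 1 to 8 higher. The other ATF4 targets had 8 to 15 lower and 0 to 1 higher. The CHOP-linked list had 1 to 5 lower and 1 to 2 higher. For the IRE1 and ATF6 list the counts were 2 to 3 lower and 1 to 2 higher. For the bZIP list they were 4 to 8 lower and 4 to 6 higher. With array weights the eIF2 list had 3 genes lower and 7 higher, the other ATF4 targets 16 and 1, and the CHOP-linked list 4 lower, where 1674 genes in all were lower and 1804 higher. The IRE1 and ATF6 list had 2 genes higher with array weights, with a pseudocount of 10 and at a mean of at least 100. Of all genes, 13.4%, 6.4% and 7.86% were higher under these settings. The cause of these shifts was not tested. With no filter 609 genes were lower and 766 higher, and without alone library 1 there were 1694 and 1811. Atf3 had 45 to 102 reads per library.

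Replicate numbers are shared between the groups, but same-numbered libraries did not deviate together (correlations of -0.26 to 0.18, with 1 of 4 alone libraries most like its own number). With a replicate block 6 members were lower by limma, Atf5 having an adjusted p of 0.0502, and 400 genes in all were lower and 498 higher. Of the members 5 differed from Atf4, the differences of Nupr1 and Sesn2 no longer passing (adjusted p = 0.0782 and 0.0538 by limma). The share of all genes that differed from Atf4 was not counted with this block. The eIF2 list then had 0 genes lower and the CHOP-linked list 1.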

Other observations

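ATF4, CHOP, ATF3, ATF5 and C/EBP gamma bind DNA as dimers with other bZIP proteins. Of 29 tested relatives outside the set, 5 fell, 4 rose and 20 did not pass the limma threshold, where 5.31% of all genes tested fell and 6.36% rose. The median log2 fold change was -0.02, and it was 0.01 without alone library 1. Fosl2, an AP-1 subunit, rose from 618 ± 43.8 to 921 ± 21.5 (normalized counts as mean ± SD, n = 4 each; log2 fold change 0.58, SE 0.06, adjusted p = 0.000163 by limma), and Fos, the immediate early AP-1 subunit, from 19.4 ± 1.95 to 40.1 ± 3.21 (1.01, SE 0.14, adjusted p = 0.00157 by limma). Fosl1 (0.28) and Creb3l1 (0.33), named after their values were seen, rose too, while Jun stood at 1091 and 1064 and Junb at 1359 and 1318 (adjusted p = 0.777 and 0.841 by limma), both also named after their values were seen. Those that fell were Jdp2 and the small MAF protein Mafg (-0.32, SE 0.04, adjusted p = 0.000562 by limma), and, named after their values were seen, the other small MAF proteins Mafk (-0.23) and Maff (-0.32) and their partner NRF2, encoded by Nfe2l2 (-0.17, SE 0.03, adjusted p = 0.00343 by limma). Maff did not pass once library 2, 3 or 4 of the co-cultures was left out (adjusted p = 0.0594 to 0.0751). Its log2 fold change was -0.26 without alone library 1. Without alone library 1, 8 genes of this list were lower and 6 higher, beside 12.5% and 13.4% of all genes.

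Spread within groups differed between the members. The SD of Atf4 was 8.79% of its mean alone and 1.22% in co-culture, and that of Atf5 8.82% and 2.52%, alone library 1 being the highest of its group for both. In Sesn2 and Trib3 the co-culture libraries spread more, at 7.06% and 8.74% of the mean, than those alone, at 3.75% and 4.21%. Alone library 1 was the highest library of its group in 6 of the 9 members. The Tribbles paralogs stood at different signs, with Trib3 at a log2 fold change of -1.04, Trib2 at 0.51 and Trib1 at 0.03 (adjusted p = 0.876 by limma for Trib1), and Sesn1, the paralog of Sesn2, stood at -0.10 (adjusted p = 0.166 by limma). Trib1 and Sesn1 were named after their values were seen. The differences between paralogs were not tested.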
